A study of Rattus norvegicus with 8 samples.

Results

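Granulosa cells and the oocyte exchange signals in both directions, and 8 genes of that exchange are described here across 8 arrays of rat granulosa cells. The members were chosen by name: Gja1, Kitlg, Nppc, Npr2, Bmpr1b, Bmpr2, Tgfbr1 and Gdf9. Every probe set whose platform annotation gave exactly 1 of these symbols was taken, which found 14 of 31099 probe sets for 7 of the 8 genes. Bmpr1b had no such probe set, and its level is not analysed here. A probe set was called measured where its signal lay above its array's median on at least 2 arrays. That held for 10 of the 14 probe sets and 6 of the 7 genes, all but Nppc, against 10513 of 14217 named genes on the arrays.

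The series compared immature rats that were all given eCG, a gonadotropin that starts follicle growth. At 24 h they received either an antibody against eCG, which sends follicles into atresia, or pre-immune serum, after which follicles go on developing. Granulosa cells came from the follicles whose oocytes were also transferred as embryos, of which 30 to 50% developed to term in the serum group and 0% in the antibody group. The labels of the 8 arrays carry a number and no treatment, so no array could be put in either group and no comparison of the treatments was made. The labels also do not say whether the arrays came from different animals or pools of animals, nor how much tissue other than granulosa was carried along. Arrays are named by label number, and 8 values given in a row follow the order 2074, 2076, 2194, 2195, 2196, 2197, 2198, 2199.

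An oocyte grows enclosed by granulosa cells, whose thin projections reach its surface. Gap junctions built of connexins such as the Gja1 product pass small molecules from cell to cell, among them cyclic GMP. Kit ligand, made by granulosa cells from Kitlg, acts on the KIT receptor of the oocyte and sustains its growth. C-type natriuretic peptide, the Nppc product of mural granulosa cells, activates the guanylyl cyclase receptor encoded by Npr2 in cumulus cells. The cyclic GMP so made passes through gap junctions into the oocyte and holds it in meiotic arrest. In the other direction the oocyte secretes GDF9 and BMP15. Both bind the type II receptor encoded by Bmpr2, with the type I receptor of Tgfbr1 for GDF9 and that of Bmpr1b for BMP15.

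The sequences before the start sites of the 3 genes for the granulosa signals to the oocyte are printed for reading alone. Their part in the reported signals was not tested. The windows come from RefSeq for the GRCr8 build, and 6 of the 8 members were matched, all but Npr2 and Bmpr1b. Each run is the 250 bases before the annotated start, 5′ to 3′ on the gene's strand, with matches to 4 short motifs in capitals. The motifs, searched on both strands, were TATAAA (the TATA box), TGAGTCA (the site of FOS and JUN dimers), CAGCTG (an E-box) and GGGCGG (the GC box). The windows are chr20:36302314-36302563 on the plus strand for Gja1, chr7:36782410-36782659 on the plus strand for Kitlg and chr9:94772187-94772436 on the minus strand for Nppc.
Gja1: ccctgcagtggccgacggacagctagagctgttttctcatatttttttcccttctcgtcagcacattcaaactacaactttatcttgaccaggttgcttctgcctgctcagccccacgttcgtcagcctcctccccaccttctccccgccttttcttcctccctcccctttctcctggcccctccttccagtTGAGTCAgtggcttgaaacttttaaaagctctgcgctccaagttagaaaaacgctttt
Kitlg: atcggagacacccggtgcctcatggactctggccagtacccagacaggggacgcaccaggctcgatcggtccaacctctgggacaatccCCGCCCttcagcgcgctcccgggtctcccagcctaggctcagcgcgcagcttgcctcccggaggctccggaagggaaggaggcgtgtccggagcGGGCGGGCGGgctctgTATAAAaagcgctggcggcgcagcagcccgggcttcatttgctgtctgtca
Nppc: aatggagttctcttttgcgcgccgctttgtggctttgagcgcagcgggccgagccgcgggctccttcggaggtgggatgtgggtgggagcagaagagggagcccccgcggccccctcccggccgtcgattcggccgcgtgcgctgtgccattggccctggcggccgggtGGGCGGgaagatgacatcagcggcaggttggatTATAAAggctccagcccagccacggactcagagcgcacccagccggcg

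In Gja1 the capitals mark 1 FOS and JUN site, from position -58 to -52 counted from the start site, a motif held by 4.05% of the 33469 annotated windows of this length. Kitlg and Nppc each held 1 TATA box, at -51 to -46 and -48 to -43, found in 12.9% of windows. Kitlg also held 3 GC boxes, of which 1 is on the minus strand and the other two overlap each other, and Nppc held 1; that motif occurred in 30.5% of windows. For Gdf9, the oocyte gene of the set, a shorter stretch is shown around its E-box (-184 to -179; 12.0% of windows), since E-boxes are bound by the oocyte factor FIGLA. It lies at chr10:38096355-38096384 on the plus strand.
Gdf9: gaaccgtgttatCAGCTGactgctgtagag
These matches describe letters in the reference and were not measured in these cells.

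Signals below are the deposited intensities after scaling each array to a common level, and have no unit beyond that scale. The spread of a gene is its inner range, which drops the top and the bottom array and divides the next highest signal by the next lowest. Each array gave 1 signal per probe set with no error of its own, so small steps in an order of arrays were not read. Before a range was taken, signals below the array's 40th percentile were raised to it, which is called the floor. Arrays 2074 and 2076 stood apart from the other 6. Their mutual correlation over bright probe sets was 0.955, against 0.849 to 0.902 between either of them and another array and 0.909 to 0.952 among the other 6. Array 2195 had the highest median, 689 against 396 to 546 elsewhere. Of 11 granulosa markers with a probe set 10 were measured, with summed signals of 270836 to 380588. Cyp11a1 alone gave 118276 to 228818 of these, so the sums say little about weaker markers. Of the 10 measured 6 reached 2-fold in their inner range, against 29.8% of all measured genes. Cyp19a1, for example, ran from 991 on array 2076 to 20657 on array 2198. Haemoglobin beta (Hbb), from red blood cells, gave 45911 on array 2074 and 3726 to 12630 on the other 7.

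Of the 6 measured members 2, Kitlg and Gdf9, reached 2-fold in their inner range when the brightest probe set stood for each gene. The same held for 29.8% of all measured genes (3130 of 10513). The median log2 inner range was 0.58 over the 6 members and 0.78 over all measured genes. On the level of probe sets 5 of the 10 measured reached 2-fold, against 31.7% of the 14058 measured probe sets with 1 gene symbol. Over arrays 2194 to 2199 alone the member count was 1 of 6, Kitlg, against 12.0% of genes. It was also 1 without array 2076 (18.7% of genes) and without array 2195 (21.8% of genes), with Gdf9 then under 2-fold.

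**Figure D1:**
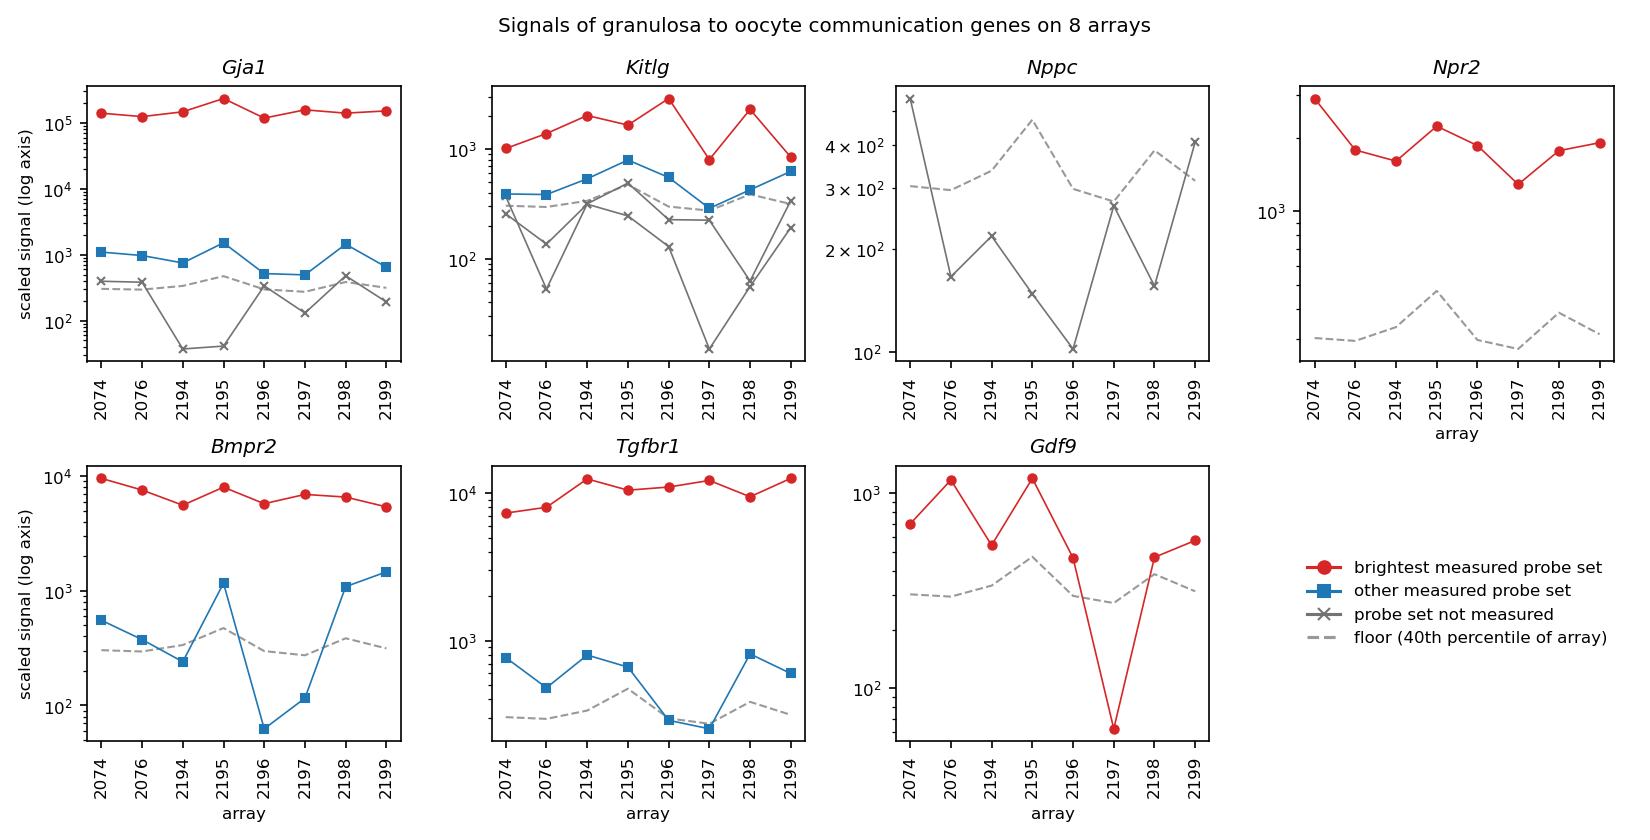
Scaled signal (log axis) of every probe set of 7 genes on 8 arrays, with the brightest measured probe set in red circles, other measured ones in blue squares and those not measured in grey crosses; the dashed line is the floor. The red Kitlg line runs from 801 to 2890.3 while the red Gja1 line lies within 118263 to 234436. The Nppc probe set is above the floor on 2 arrays.

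**Figure D2:**
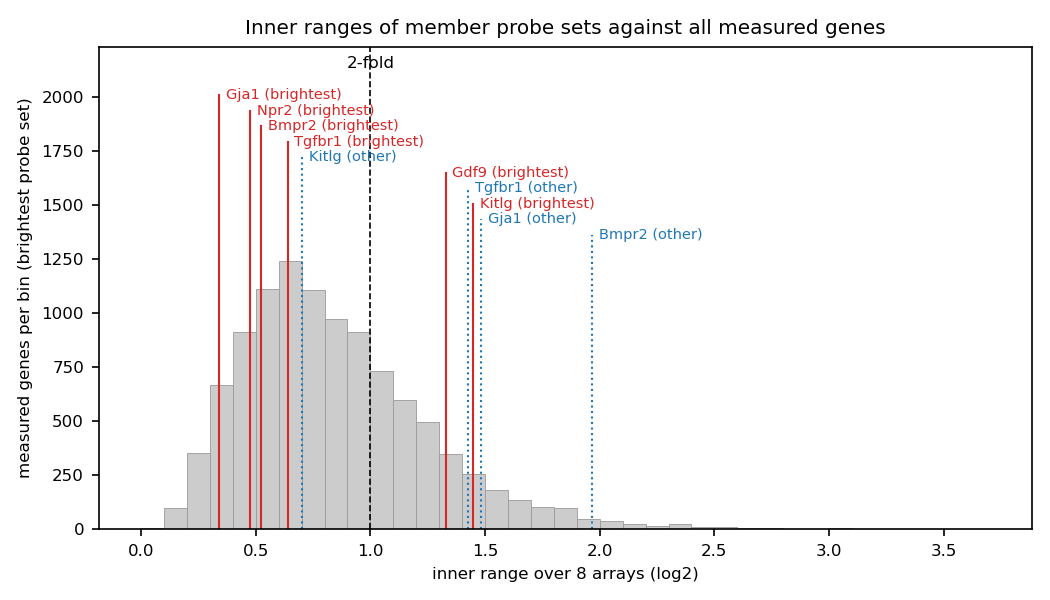
Histogram of the log2 inner range of 10513 measured genes (grey bars, brightest probe set) with vertical lines at the 10 measured member probe sets, solid red for the brightest of a gene and dotted blue for others; line heights carry no meaning. Of the 6 red lines 4 lie left of the 2-fold mark, and of the 4 blue lines 3 lie right of it.

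Kitlg, the Kit ligand gene, had the widest inner range among the brightest probe sets of the 6 measured members, while Gdf9 had the wider full range. Its brightest probe set (1388856_at) gave 1011, 1385, 2023, 1654, 2890.3, 801, 2299 and 842. Arrays 2196, 2198 and 2194 were the highest, and arrays 2197 and 2199 the lowest. The inner range was 2.73-fold, wider than in 92.3% of measured genes, and the full range 3.61-fold. It was not carried by the pair of arrays that stood apart, being 2.72-fold over arrays 2194 to 2199. The ends of the order held without scaling. After quantile normalization arrays 2196 and 2198 remained the highest, while 2199 and 2197 changed places at the bottom.

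A second Kitlg probe set, 1388096_at, was measured, with 389, 384, 535, 794, 550.1, 287, 424 and 624, and lay above the array's median on 4 arrays. There array 2195 was the highest and array 2197 again the lowest, and the inner range was 1.63-fold. The 2 measured probe sets stood on the same side of their own medians on 6 of 8 arrays, but array 2198 was high in the first and below the median in the second, and array 2199 was low in the first and above it in the second. Probe sets 1370770_s_at and 1396214_at lay above no array's median, with highest signals of 489 and 313, and their order over arrays was not read.

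Nppc, the natriuretic peptide gene, was near the low end of what the arrays read. Its only probe set (1387744_at) gave 545, 166, 217, 148, 102, 266, 156 and 408. Arrays 2074 and 2199 lay above the floor and the other 6 below it, and only array 2074 passed its own median. The gene was therefore not called measured, and its inner range was set by the floor on both sides. Arrays 2074 and 2199 were the highest under all 3 scalings, those being the main one, none and quantile. Array 2074 is also the one with the high Hbb signal. Its part in the Nppc value was not tested.

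For Gja1, the main connexin of granulosa cells, the brightest probe set was among the steadier ones, but its other measured probe set was not. The brightest (1372002_at) gave 140351, 124592, 147408, 234436, 118263, 157880, 140641 and 152138. It lay between the 99.89 and 99.96 percentile on every array. Whether differences are compressed at that height was not tested. Array 2195 was 1.48 times the next highest, and the other 7 lay within 118263 to 157880. The inner range of 1.27-fold was wider than in 6.59% of measured genes. The high value of array 2195 was also seen without scaling, at 220368 against 157541 for the next. After quantile normalization array 2195 was tied with array 2199 at 172254. That method sets values by rank, and the probe set held the same rank on both arrays. It therefore could not show whether array 2195 was higher. Cyp11a1, a bright steroidogenic gene, had its highest signal on array 2195 as well, 228818 against 118276 to 164778, and 23.6% of all measured genes were highest there.

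A second measured Gja1 probe set (1369640_at) varied more, with 1096, 972, 750.1, 1517, 517, 495, 1444 and 648. Arrays 2195 and 2198 were high and arrays 2197 and 2196 low, an inner range of 2.79-fold. It stood on the same side of its median as the brightest probe set on 2 of 8 arrays, so the probe sets of this gene did not give one order. The third, 1369639_at, lay above no array's median and reached 479.

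Npr2, the receptor for C-type natriuretic peptide, was measured on all 8 arrays by 1 probe set (1387099_at). Its signals were 2897, 1783, 1607, 2232, 1859.8, 1290.1, 1772 and 1911. Array 2074 was the highest, array 2195 the next and array 2197 the lowest, and this held under all 3 scalings. The 5 arrays in between ran from 1607 to 1911. The inner range was 1.39-fold, wider than in 17.2% of measured genes, and the full range 2.25-fold.

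Bmpr2, the type II receptor that GDF9 and BMP15 share, gave 9557, 7557, 5574, 8008, 5745, 6924, 6565 and 5391 with its brightest probe set (1376843_at). Array 2074 was the highest under all 3 scalings, and arrays 2194, 2196 and 2199 were the lowest of the 8 here. The inner range was 1.44-fold and the full range 1.77-fold. Its other measured probe set (1394667_at) had the widest inner range of all member probe sets. That probe set gave 553, 375, 240.4, 1164, 62.6, 116, 1086 and 1462, with arrays 2199, 2195 and 2198 high and 3 arrays under the floor. Its inner range was at least 3.91-fold, wider than in 98.6% of measured probe sets, and the value is a lower bound because the second lowest array had been raised to the floor. The 2 probe sets were on the same side of their medians on 4 of 8 arrays.

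Tgfbr1, the type I receptor used by GDF9, gave 7323, 8018, 12482, 10470, 10997, 12187, 9446 and 12592 with its brightest probe set (1376636_at). Arrays 2074 and 2076 were the lowest, and both lay below all of the other 6, which ran from 9446 to 12592. Such a position was found for 13.6% of measured genes, and both above the other 6 for 13.8%. With the main scaling Tgfbr1 was the only 1 of the 6 measured members in which the pair lay beyond the rest in either direction. Without scaling Bmpr2 had the pair above the other 6 as well, at 9922 and 7757 against 7527 for the next array. The inner range of Tgfbr1 was 1.56-fold, and 1.21-fold over arrays 2194 to 2199. The same pair of arrays had the lowest summed signals of 5 measured leukocyte markers, 2960.4 and 3605 against 4027 to 5438. Of these markers Csf1r was lowest on the pair, at 180.1 and 528 against 875 or more elsewhere, whereas Cd74 went the other way, with 658 and 784 exceeded only by 827 on array 2196. Cd14 on array 2074, at 1497, lay within the range of the other 6 arrays, and Ptprc, which defines leukocytes, was under the floor on all 8 arrays with a highest signal of 308. The part of such cells in the Tgfbr1 signal was not tested. Tgfbr1's other measured probe set (1369504_at) gave 768, 480.1, 799.5, 663, 289, 253, 813 and 599.8, with arrays 2197 and 2196 lowest. Its inner range was at least 2.68-fold, and 1.67-fold without array 2196 or without array 2197. The 2 probe sets shared a side on 2 of 8 arrays.

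Gdf9, which in the follicle is a transcript of the oocyte, was measured in these granulosa cell samples. Its probe set (1369121_at) gave 697, 1172, 542, 1194, 467, 62.0, 470.3 and 573. Arrays 2076 and 2195 were high, 5 arrays lay between 467 and 697, and array 2197 was the lowest and the only 1 under the floor. The signal passed the array's median on 6 arrays. The inner range was 2.51-fold, wider than in 88.7% of measured genes, and the full range with the floor 4.36-fold. The inner range rested on arrays 2076 and 2195 together. On the log2 scale it was 1.33 with all arrays, 0.58 without array 2076, 0.56 without array 2195 and 0.30 over arrays 2194 to 2199. In bulk RNA fewer cells of a type and less RNA per cell cannot be told apart.

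Other oocyte genes were measured in part. Of 25 oocyte markers listed, 12 had a probe set and 5, Gdf9 included, were measured. Zp2, a protein of the zona pellucida, gave 166, 207, 804, 692, 486, 199, 735 and 344, with arrays 2194, 2198 and 2195 high and 3 arrays under the floor, among them 2076. Ooep, of the maternal complex beneath the oocyte membrane, gave 645, 873, 634, 623, 603, 508, 659 and 679.8. It was highest on array 2076 and lowest on array 2197, as Gdf9 was second highest and lowest there, but its inner range was 1.13-fold. Ooep passed the array's median on 7 arrays and was under the floor on none of the 8. Btg4, which acts in clearing maternal RNA, reached 1442 on array 2195 and was under the floor on 4 arrays. Ybx2, an RNA-binding protein of germ cells, ran from 56.1 on array 2074 to 1087 on array 2199 and was under the floor on 3 arrays. Bmp15, the partner of Gdf9, passed no array's median and reached 517, and neither did Zp1 (up to 174), Zp3 (417), Mos (408) or Tle6 (552). Sohlh1 (up to 435) and Kit, the receptor of Kit ligand (up to 1376, on array 2195), passed the median on 1 array each. The summed signal of the 5 measured markers, Gdf9 itself among them, was lowest on array 2197, at 1416, and highest on array 2195, at 4294. The low end of that sum repeats in part the Gdf9 value. At its high end, array 2195 was also the highest for 23.6% of all measured genes. Apart from Gdf9 only Ooep was lowest on array 2197, whereas Zp2, Btg4 and Ybx2 were lowest on array 2074, at 166, 48.7 and 56.1. The measured markers thus shared no single order over arrays, and the part of oocyte RNA in the Gdf9 signal was not tested.

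**Figure D3:**
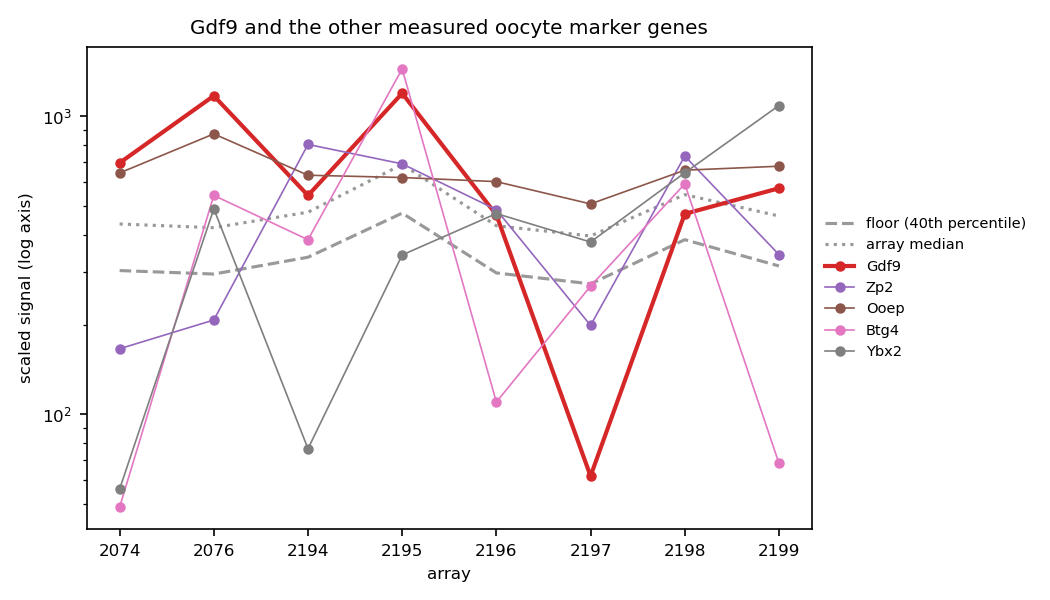
Scaled signal (log axis) of Gdf9 (thick red) and the other 4 measured oocyte markers on 8 arrays, with the array's median (dotted) and floor (dashed). Gdf9 peaks on arrays 2076 and 2195 and drops to 62.0 on array 2197, while Ooep stays between 508 and 873.

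The 6 measured members did not rank the arrays alike. In 15 pairs of their brightest probe sets, both genes lay on the same side of their medians on 2 to 6 of 8 arrays, and on 6 arrays in 3 pairs. Those pairs were Gja1 with Tgfbr1, Npr2 with Gdf9 and Bmpr2 with Gdf9. The share over all gene pairs was not computed, so these pairs were not read as related. Npr2 and Bmpr2 had the smallest root mean square log2 difference, 0.27, and Kitlg and Gdf9 the largest, 0.89. That measure grows with the spread of both genes, so it in part repeats their inner ranges. Npr2 and Bmpr2 lay on the same side of their medians on 4 of 8 arrays. Array 2197 was the lowest for 3 of the 6 (Kitlg, Npr2 and Gdf9) and for 11.6% of all measured genes. Array 2074 was the highest for Npr2 and Bmpr2 and for 14.2% of all genes.

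Among the other connexins listed, signals were low. Of 16 genes on the gap junction list, 11 had a probe set, 5 were measured and 2 of these reached 2-fold (all measured genes: 29.8%). Gjc1 gave 302, 465, 907, 886, 136, 169.6, 179 and 632, an inner range of at least 2.97-fold, with 4 arrays under the floor. Gja5, a connexin of vessels, had 2.29-fold and its highest signal, 1922, on array 2198. Gja4, whose connexin joins the oocyte to its granulosa cells, was under the floor on 5 arrays and had at least 1.69-fold. Gja1 had the smallest inner range of the list by its brightest probe set, but its next probe set had 2.79-fold.

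On the natriuretic peptide and cyclic nucleotide list 15 of 20 genes had a probe set, 10 were measured and 8 reached 2-fold. The median inner range was 2.35-fold. Over all measured genes the share at 2-fold was 29.8% and the median 1.71-fold. Most of these were weak signals. Pde5a, a phosphodiesterase for cyclic GMP, had at least 3.43-fold and gave its highest signals on arrays 2198 (1052) and 2194 (1042). The peptide gene Nppb had at least 3.23-fold, with 1143 on array 2196 and 1029 on array 2198, and the adenylyl cyclase gene Adcy9 at least 2.67-fold, with 1782 on array 2074. These 3 were under the floor on 2, 3 and 4 arrays. Gucy1a1, a subunit of soluble guanylyl cyclase, had the smallest inner range at 1.23-fold, but its next probe set had at least 2.70-fold. Pde3a, the phosphodiesterase of the oocyte, and Npr3, the clearance receptor, passed no array's median.

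Of 10 genes on the Kit signalling list all had a probe set, 6 were measured and only Kitlg reached 2-fold (all measured genes: 29.8%). The adaptor gene Grb2 had 1.82-fold, Shc1 1.35-fold, and the catalytic phosphoinositide kinase gene Pik3ca the smallest inner range, 1.23-fold. Receptors of the TGF-beta family had probe sets for 11 of 14 genes, of which 8 were measured and 3 reached 2-fold, beside the same 29.8%. Tgfbr3, the co-receptor for inhibin, had at least 2.48-fold, the activin receptor gene Acvr2a 2.25-fold and Acvr2b at least 2.10-fold. Acvr2a was lowest on array 2074, at 581, and highest on array 2195, at 2783. Bmpr1a, a type I receptor for BMPs, had the smallest inner range of the family at 1.15-fold, with 7 arrays between 3169 and 3885 and array 2199 at 2339.

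Among 16 ligands and antagonists 15 had a probe set, 10 were measured and 6 reached 2-fold (all measured genes: 29.8%). The activin-binding gene Fstl3 had at least 3.75-fold. Bmp2, a ligand made by granulosa cells, gave 4044, 3779.8, 26904, 8145, 8429, 5706, 9908 and 13322. Arrays 2074 and 2076 were the lowest there, and the inner range fell from 3.29-fold to 1.66-fold over arrays 2194 to 2199. Gdf9 had the next widest inner range on this list. Fst, which encodes follistatin, had the smallest inner range, 1.45-fold, and its next probe set had 2.02-fold.

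A list of genes tied to oocyte factors in granulosa and cumulus cells, EGF-like ligand genes among them, had probe sets for 14 of 15. Of these 9 were measured and 3 reached 2-fold, against 29.8% of all measured genes. Induction of these genes by oocyte factors was not tested. Id3, an inhibitor of differentiation factors, had 2.31-fold, and the EGF-like ligand gene Areg at least 2.11-fold. Ptgs2, which makes prostaglandins, had 2.08-fold, with 9257 on array 2198 against 462 to 1287 on the other 7. Areg, Ereg and Ldha of the list were also highest on array 2198, at 1271, 10127 and 126658, as were 14.5% of all measured genes. The other measured genes of the list, Has2, Id1, Id2, Id3 and Pfkp, were highest on other arrays. The member values on array 2198 were not extreme in the brightest probe set of any gene, with Kitlg second highest there. Pfkp, of glycolysis, had the smallest inner range, 1.27-fold. Tnfaip6, Grem1, Slc38a3 and Smad7 passed no array's median.

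**Figure D4:**
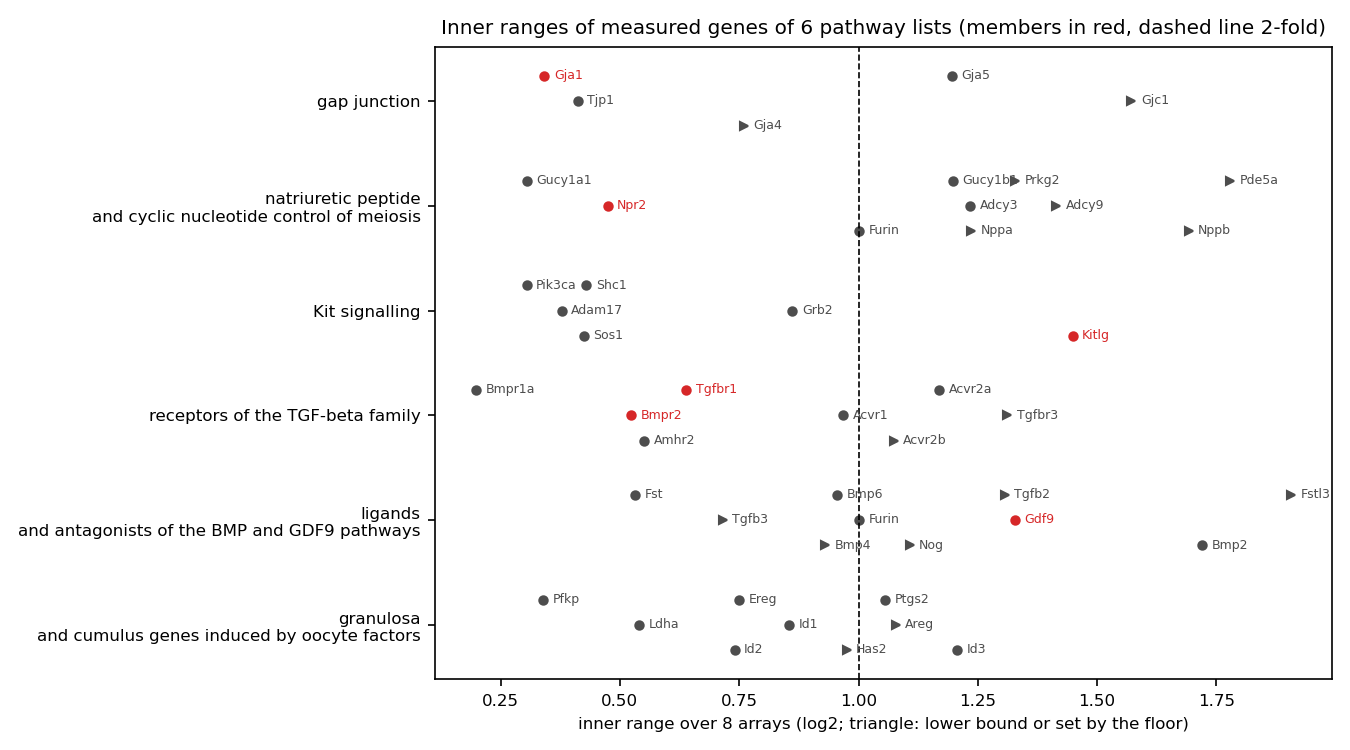
Log2 inner range over 8 arrays of each measured gene on 6 lists (rows), with members in red, triangles where the floor set the value as a lower bound and a dashed line at 2-fold. Kitlg is the only gene of its row past 2-fold, whereas 8 of 10 genes of the natriuretic peptide row are past it, 5 of them as lower bounds. Of all measured genes 29.8% reach it.

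The genes most like the members that reached 2-fold were found by the root mean square difference of log2 signals, centred on each gene's median, over all 8 arrays and 10513 genes. For Kitlg they were Sult1b1, a sulfotransferase gene (0.21), Kif20a, a kinesin gene of cell division (0.29), and Mchr1, a receptor gene for melanin-concentrating hormone (0.29). The median over all genes was 0.76. Sult1b1 gave 5617, 7343, 11983, 9914, 11398, 4898, 14315 and 4289, with arrays 2199, 2197 and 2074 lowest as in Kitlg. Mchr1 was under the floor on 4 arrays. For Gdf9 the nearest were Ky (0.23), Pgp, a phosphatase gene of metabolite repair (0.26), and Ppbp, a platelet chemokine gene (0.27), against a median of 0.76. Pgp gave 2452, 3176, 2198, 4406, 1638, 1461, 1708 and 1994, with arrays 2195 and 2076 highest and array 2197 lowest, as in Gdf9. Ky and Ppbp were each under the floor on 2 arrays. The nearest of 10513 genes over 8 points are selected extremes. With Pearson correlation as the measure 1 of the 3 Kitlg genes and 2 of the 3 Gdf9 genes were found again, after quantile normalization also 1 and 2, and over arrays 2194 to 2199 none of either.

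**Figure D5:**
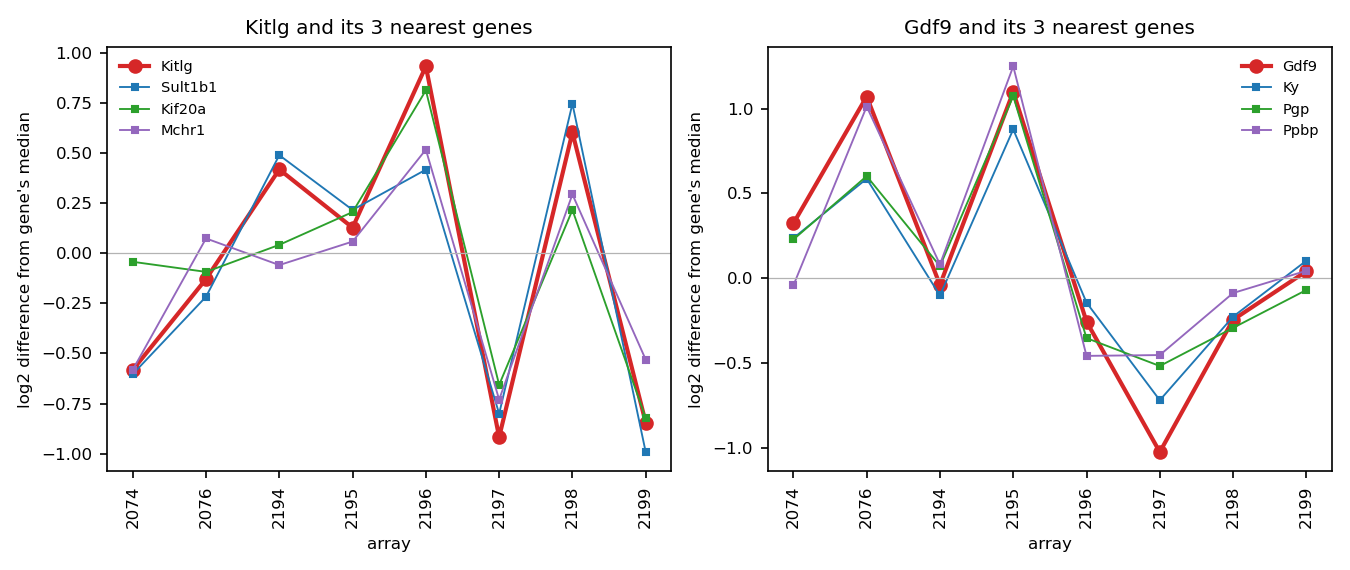
Log2 signal after the floor, minus the gene's median, on 8 arrays for Kitlg (left, red) and Gdf9 (right, red) with the 3 nearest genes of each. The lines of Sult1b1 and Kitlg share their low points on arrays 2074, 2197 and 2199, and those of Pgp and Gdf9 their high points on arrays 2076 and 2195.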

How the data were processed

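Total RNA of granulosa cells was biotin-labelled and hybridised to 8 one-colour Affymetrix rat arrays. The deposited values are signal intensities on a linear scale, made by the authors with MAS5 per the submitters' processing notes; version and settings are not given in the sources used here. Each deposited array had the same mean after trimming 2% at either end, between 1500.5 and 1500.6. Detection calls were not used here, so weak probe sets were recognised by rank alone.

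After 57 control probe sets were left out, log2 signals were brought to 1 shared median over 10109 bright probe sets, those past the array's median everywhere; scale factors ran from 0.963 to 1.06. Signals are printed before the floor and ranges taken after it. Symbols came from the platform annotation, which can be old. Gene identifiers of 20764 of 20832 probe sets with 1 symbol were in the GRCr8 gene table, which changed 0 symbols. A gene's brightest measured probe set by mean log2 signal stood for it. Signals of different probe sets were not ranked against each other.

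All arrays stayed without a group, so group means, errors and tests were not made. The number of arrays limits precision. Named are the members, the 3 widest and the 1 narrowest gene of each of the 6 pathway lists, the measured oocyte markers and the 3 genes nearest to each member of at least 2-fold. Other genes, among them the markers of other cell types and genes that were not measured, were named after their values were seen. Members and lists were chosen with earlier results of these data known. Alternatives were other scalings, floors and filters, the full range, averaging a gene's probe sets and leaving out arrays. The steps were run on simulated data with known shifts in bright probe sets, which does not cover signals near the floor. Python 3.11.15, numpy 2.4.6 and pandas 2.3.3 were used.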

Additional observations from a re-analysis of the deposited data

Results flagged for a closer look

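A single array far from the other 7 was looked for in the log2 signals of the 10 measured member probe sets, with Dixon's ratio of the end gap to the range and its 95% critical value of 0.526 for 8 arrays. For a single probe set with normally distributed values, chance alone gives about 1 such case in 20, and 10 probe sets were looked at. The share of all measured probe sets past the critical value was not computed, so the flags were not read as beyond chance. Gja1 (1372002_at) had array 2195 far above the rest, with a ratio of 0.578, a signal of 234436 and the next array at 157880. The ratio was 0.541 without scaling, and after quantile normalization array 2195 no longer stood above the next. Of all measured genes 23.6% were highest on array 2195. Gdf9 (1369121_at) had array 2197 far below the rest, with a ratio of 0.682, a signal of 62.0 and the next array at 467. That ratio was 0.670 without scaling and 0.603 after quantile normalization. The Gdf9 value lay under the floor, where signals are noisy, so its distance is not a measured fold. The ratios were taken before the floor, so the Gdf9 flag rests on a value that the inner ranges raise. Its ratio after the floor was not computed.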

How the results depend on the processing

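The inner ranges of the 10 measured member probe sets and the counts of members at 2-fold were recomputed, 173 values in all; for other filters on low signals and for averaged probe sets only the counts were. Of these 155 moved by less than the spread over arrays (1 SD; counts by no more than 1.5 times). With the full range the log2 value was 0.99 for Gja1, 1.17 for Npr2, 0.83 for Bmpr2 and 2.13 for Gdf9, larger by construction. Over arrays 2194 to 2199 it was 0.28 for Tgfbr1 and 0.30 for Gdf9, and 1 member gene reached 2-fold. Leaving out 1 array in turn gave 0.56 to 1.33 for Gdf9, lowest without array 2195 and 0.58 without array 2076, and 1 to 2 member genes at 2-fold. With a stricter filter, signals past the array's median on each of the 8, 1 of 5 member genes (19.3% of all genes) and 2 of 6 probe sets (20.1% of all) reached 2-fold; Gdf9 was not among the 5. Of 56 values of the probe sets that were not a gene's brightest, 5 moved, among them Bmpr2 1394667_at, 8.55-fold with the floor at the 25th percentile and 10.1-fold with none. No scaling and quantile normalization left 2 of 6 genes and 5 of 10 probe sets at 2-fold. The share of all measured genes at 2-fold ran from 12.0% over 6 arrays to 71.4% with the full range. No paired analysis was possible because the labels give no groups.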

Other observations

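Markers of other cell types were measured beside those of granulosa. Of 12 theca and stroma markers 8 were measured, with summed signals of 3463 on array 2194 to 7999.7 on array 2198. Acta2, the actin of smooth muscle, passed the median on all 8 arrays, with 786 on array 2197 to 3086 on array 2198. The collagen genes Col1a1, Col1a2 and Col3a1 passed it on 7, 6 and 6 arrays. Col1a2 reached 1944 and Col3a1 1550.4, both on array 2074, and Col3a1 had the widest inner range of the list, 3.82-fold. Cyp17a1, the androgen-making enzyme of theca, was under the floor on 5 arrays and reached 1164 on array 2198. Of 8 endothelial markers 4 were measured, summing to 765 on array 2196 and 4159 on array 2195, and each of the 4 was under the floor on 3 to 5 arrays. Tek, Tie1 and Emcn were highest on array 2195, as were 23.6% of all measured genes, and Pecam1 on array 2197. Kdr, which was not measured, was lowest on array 2195, at 73.1.

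The 3 measured erythroid markers summed to 49146 on array 2074 and to 4299.8 on array 2197, and most of each sum was Hbb. Hbb passed the median on all 8 arrays. Alas2, the haem synthesis enzyme of red cell precursors, gave 3208 on array 2074 and 88.7 to 673 on the others. Slc4a1, the anion exchanger of red cells, went the other way, with 26.7 on array 2074, its lowest, and 917 on array 2194, its highest.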
